A study of Saccharomyces cerevisiae with 3 samples.

Results

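The genes described here are 34 Saccharomyces cerevisiae genes of methionine, cysteine and sulfate metabolism, out of 5543 genes that the array names. They were chosen by gene symbol from knowledge of the pathway, with earlier results of these data known. Each of the 34 had 2 spots. Of the 34 genes, 26 had a value on all 3 arrays, 7 had one in replicates 1 and 2 only, and MET2 had one in replicate 1 only. For comparison, 64.6% of the genes on the array had a value on all 3.

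Each of the 3 arrays set RNA of a culture producing War1K762R against RNA of a culture producing War1, the weak acid response transcription factor. Both strains were of the W303 background (W303-1A in the treatment text of replicates 1 and 2) and expressed their form of WAR1 from the galactose-inducible GAL1 promoter, and the name K762R gives an exchange of lysine for arginine. At an OD600 of 0.8, cultures kept at 30 °C in rich raffinose medium (2%) were given 2% galactose, and cells were collected 1 h later. The labels name no weak acid and do not say whether the native WAR1 gene was present. War1K762R was labelled with Cy5 in replicates 1 and 2 and with Cy3 in replicate 3. For the Cy3 channel of replicates 1 and 2 the source name gives War1 but the treatment text gives the mutant, and the source names were followed.

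Every ratio is a log2 ratio of War1K762R over War1 with the median of all spots of its array set to 0. That direction is likely but not certain, since it rests on the dye labels and on Cy5 as the numerator of the scanner's ratio, which is assumed. With Cy3 as the numerator every sign in the text would turn while the sizes and tests would stay. The mean over the arrays was tested against 0 with limma in the 3579 genes measured on all 3, and adjusted p-values are Benjamini-Hochberg values over all of these. Errors are the SD between arrays (n = 3). The median SD between arrays was 0.27 for the 26 sulfur genes and 0.20 for all genes tested, on the log2 scale. A single spot of these genes had an SD of 0.16, 0.14 and 0.14 within replicates 1, 2 and 3. PDR12, the best-known War1 target, had log2 ratios of 1.41, 0.95 and 0.52 in replicates 1, 2 and 3 (adjusted p = 0.0461, limma). WAR1, whose spots read both forms, had 0.74, 0.12 and 0.19, with a mean of 0.35 ± 0.34 (adjusted p = 0.32, limma). Both genes were highest in replicate 1.

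Yeast cells take up sulfate, activate it with ATP and reduce it through sulfite to sulfide, which is joined to O-acetylhomoserine to give homocysteine. Homocysteine is methylated to methionine, and methionine becomes S-adenosylmethionine (AdoMet), the donor of methyl groups, which returns to homocysteine in the methyl cycle. The transsulfuration pathway links homocysteine and cysteine in both directions. The activator Met4, which has no DNA binding activity of its own, is brought to these genes by Cbf1 and by Met31 or Met32, and the ubiquitin ligase subunit Met30 restrains it when sulfur amino acids are plentiful.

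Of the 26 sulfur genes measured on all 3 arrays, 0 passed adjusted p 0.05 in limma, where 0.363% of all genes tested passed. At an unadjusted p under 0.05, 3 were higher with War1K762R, CYS4, SAH1 and SAM2 (11.5% of the 26, against 11.1% of all genes tested). At the same level 2 were lower, MET16 and MET14 (7.69% of the 26, against 2.68% of all genes tested). That share leaves out genes with no value in replicate 3, and on the genes with at least 2 arrays it was 7.76%. The smallest mean of any gene that passed the adjusted threshold was 0.69 in size, above the largest mean among the sulfur genes, 0.63 for CYS4. The median of the 26 means was 0.066, beside 0.049 for all genes tested. On the arrays, 6 of the 26 genes were positive on all 3 arrays (23.1%, against 24.7% of all genes) and 3 were negative on all 3 (11.5%, against 13.5%). These signs are of the average of a gene's spots. Among these genes, spots lay on either side of 0 for MET13, SAM1 and SAM4 in replicate 3 and for MET31 in replicate 2. By the median and the counts of one sign on all 3 arrays, the genes as a list lay close to the other genes tested. Their individual means ran from −0.48 to 0.63.

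**Figure D1:**
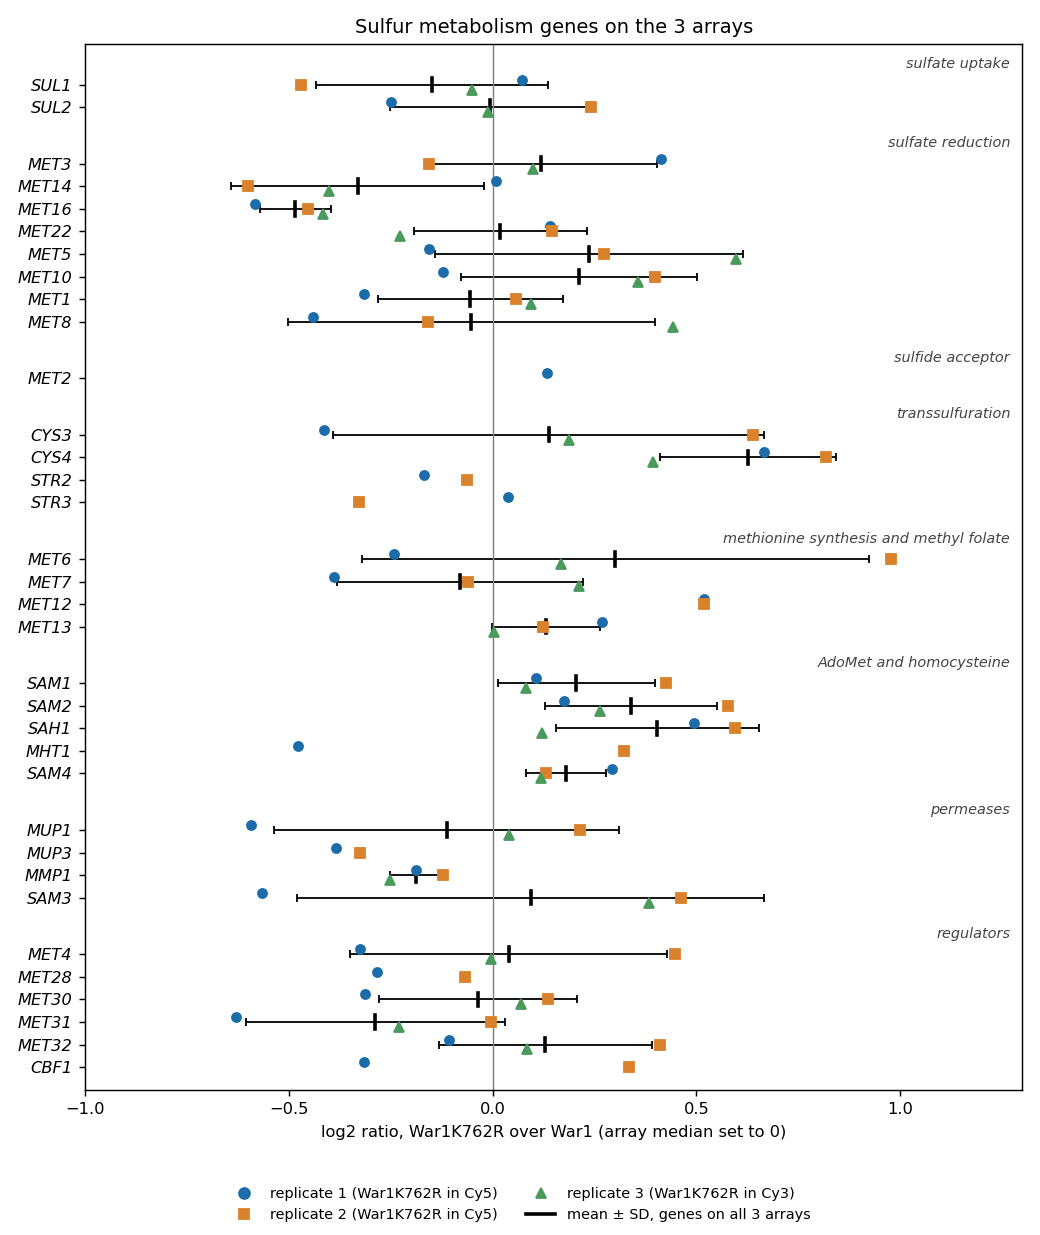
Log2 ratio of War1K762R over War1 (x axis) for the 34 sulfur genes, grouped by role, with one symbol per array (set slightly apart in height) and, for the 26 genes on all 3 arrays, the mean (thick tick) and SD (bar). CYS4 lies right of 0 and MET16 left of 0 on every array, while 9 of the 26 genes lie left of 0 in replicate 1 and right of 0 in replicates 2 and 3.

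The sulfate reduction genes did not share one sign. In replicates 2 and 3, MET14 and MET16 of the steps that lead to sulfite were negative. MET5 and MET10 of the step from sulfite to sulfide were positive there. MET3, the first of the steps to sulfite, had −0.16 and 0.10 on these arrays. In replicate 1, MET16, MET5 and MET10 were negative, MET14 was near 0 and MET3 was positive. The genes and arrays of this contrast were picked after the values were seen, and it was not tested. MET16 (YPR167C), which encodes the PAPS reductase that makes sulfite from activated sulfate, had log2 ratios of −0.58, −0.45 and −0.42 in replicates 1, 2 and 3. It was lower on every array, and its arrays lay close together. Its mean was −0.48 ± 0.09, or 1.40-fold lower, with a 95% interval of −0.75 to −0.22 (unadjusted p = 0.00227, adjusted p = 0.123, limma). Of the 3579 genes tested, 5 had a lower mean. Genes with no value in replicate 3 are outside this ranking. At an unadjusted p under 0.05, 7.76% of the genes with at least 2 arrays were lower, beside 2.68% of the 3579 (limma). Both spots of MET16 were negative on every array.

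MET14 (YKL001C), the APS kinase gene of the step before MET16, had log2 ratios of 0.0072, −0.60 and −0.40. It was lower in replicates 2 and 3 and near 0 in replicate 1, where its spots were on either side of 0. Its mean was −0.33 ± 0.31 (95% interval −0.65 to −0.016, unadjusted p = 0.0412, adjusted p = 0.327, limma). MET3 (YJR010W), the ATP sulfurylase gene that opens the pathway, had 0.41, −0.16 and 0.10, with a mean of 0.12 ± 0.29 (adjusted p = 0.725, limma). MET14 lay below MET3 by nearly the same amount on each array, with differences of −0.41, −0.44 and −0.50 in replicates 1, 2 and 3 (mean −0.45 ± 0.05). This pair was chosen after the values were seen and the difference was not tested. Each of the genes varied more between arrays than their difference did. The spots of MET14 in replicate 3, at −0.59 and −0.21, lay further apart than these differences did, so their closeness is finer than the spots resolve.

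MET5 (YJR137C) and MET10 (YFR030W) encode the beta and alpha subunits of sulfite reductase. MET5 had −0.16, 0.27 and 0.60, and MET10 had −0.12, 0.40 and 0.36. Replicates 2 and 3 were positive and replicate 1 negative for both. Their means were 0.24 ± 0.38 and 0.21 ± 0.29 (adjusted p = 0.499 and 0.508, limma), so neither differed from 0 beyond the spread between arrays. MET16 lay below MET5 by 0.43 in replicate 1, 0.73 in replicate 2 and 1.01 in replicate 3, a difference that was picked from the values and not tested.

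The genes for siroheme, the prosthetic group of sulfite reductase, had lower means than its subunits. MET1 had the signs of MET5 and MET10 on each array. MET8, like MET5, was lowest in replicate 1 and highest in replicate 3. MET1 (YKR069W), the uroporphyrinogen methyltransferase gene, had −0.32, 0.057 and 0.095. The spot of MET1 that was lower on the other arrays had no value in replicate 3. MET8 (YBR213W), the gene of the dehydrogenase and ferrochelatase, had −0.44, −0.16 and 0.44, with 1 of its spots measured in replicate 3. Their means of −0.054 ± 0.23 and −0.052 ± 0.45 were near 0 (adjusted p = 0.883 and 0.914, limma). MET22 (YOL064C), the bisphosphate nucleotidase gene that removes the by-product of the Met16 reaction, had 0.14, 0.14 and −0.23 and a mean of 0.019 ± 0.21.

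Upstream of these steps, the sulfate permease genes had small means, while single arrays lay further from 0. SUL1 (YBR294W) had 0.072, −0.47 and −0.051 and SUL2 (YLR092W) had −0.25, 0.24 and −0.011. Each had both signs among its arrays, and their arrays were in opposite order. SUL2 minus SUL1 was −0.32, 0.71 and 0.040 in replicates 1, 2 and 3. Their means were −0.15 ± 0.28 and −0.0071 ± 0.25 (adjusted p = 0.655 and 0.984, limma).

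Downstream, the acceptor of sulfide is made by the homoserine O-acetyltransferase Met2. MET2 (YNL277W) had a value on 1 spot of replicate 1 alone, at 0.13. MET17 (YLR303W), the gene of the enzyme that joins sulfide to that acceptor, is outside the chosen genes and had −0.28, 0.14 and −0.30, with a mean of −0.15 ± 0.25 (adjusted p = 0.644, limma).

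Transsulfuration held the highest mean of the sulfur genes. CYS4 (YGR155W), which encodes cystathionine beta-synthase, the first enzyme from homocysteine to cysteine, had log2 ratios of 0.67, 0.82 and 0.39. It was higher with War1K762R on every array, and the dye swap had the lowest of the values. Its mean was 0.63 ± 0.22, or 1.54-fold higher, with a 95% interval of 0.34 to 0.91 (unadjusted p = 0.000671, adjusted p = 0.0793, limma). Of the 3579 genes, 41 had a higher mean. All of its 6 spot values were positive, from 0.32 to 0.92 on the log2 scale. CYS4 passed in limma where more genes were tested together, with adjusted p = 0.0332 on the 5479 genes with at least 2 arrays and adjusted p = 0.0389 without replicate 3 on 5475 genes. Without replicate 3 on the genes measured on all 3 arrays its adjusted p was 0.0857 (limma). In the fits on 5479 and 5475 genes, 2.14% and 1.46% of the genes passed. Over its alternatives the adjusted p of CYS4 ran from 0.0332 to 0.902 (limma). The value of 0.902 came with the sign of replicate 3 turned once more, and the next highest was 0.228, without replicate 1 (limma).

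CYS3 (YAL012W), the cystathionine gamma-lyase gene of the next step to cysteine, did not share this pattern. It had −0.41, 0.64 and 0.19, with a mean of 0.14 ± 0.53 (95% interval −0.26 to 0.54, adjusted p = 0.766, limma). Replicate 1 opposed the others, and 96.8% of the genes tested had a smaller spread. CYS4 exceeded CYS3 by 1.08 in replicate 1, 0.18 in replicate 2 and 0.21 in replicate 3, so the gap between these consecutive steps came mostly from 1 array. The genes of the reverse route were measured in replicates 1 and 2 only. STR2 (YJR130C), for cystathionine gamma-synthase, had −0.17 and −0.064, and STR3 (YGL184C), for cystathionine beta-lyase, had 0.039 and −0.33. The spots of STR3 disagreed within both arrays, with 0.28 and −0.21 in replicate 1 and −0.66 and 0.0039 in replicate 2. With at least 2 arrays their adjusted p-values were 0.76 and 0.699 (limma).

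The genes for the methyl cycle enzymes that make and recycle AdoMet had positive averages of their spots on every array. SAH1 (YER043C), whose S-adenosylhomocysteine hydrolase returns homocysteine to the cycle, had 0.50, 0.60 and 0.12. Its mean was 0.40 ± 0.25, or 1.32-fold higher (95% interval 0.11 to 0.70, unadjusted p = 0.0127, adjusted p = 0.24, limma). SAM2 (YDR502C) and SAM1 (YLR180W) encode the AdoMet synthetases. SAM2 had 0.18, 0.58 and 0.26 and a mean of 0.34 ± 0.21 (unadjusted p = 0.0251, adjusted p = 0.287, limma). SAM1 had 0.11, 0.43 and 0.081 and a mean of 0.20 ± 0.19 (adjusted p = 0.489, limma), and its spots in replicate 3 lay at 0.21 and −0.047. Replicate 2 was highest for both synthetase genes. These are close paralogs, and cross-hybridisation between their spots was not checked, so their values may not be independent.

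The other homocysteine methyltransferase genes were mixed in coverage. SAM4 (YPL273W), whose enzyme methylates homocysteine with AdoMet, had 0.29, 0.13 and 0.12, with a mean of 0.18 ± 0.10 (adjusted p = 0.514, limma). In replicate 3 the spots of SAM4 lay at −0.12 and 0.35. MHT1 (YLL062C), whose enzyme uses S-methylmethionine instead, had −0.48 and 0.32 in replicates 1 and 2 and no value in replicate 3.

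Of the 26 sulfur genes, the one for methionine synthesis itself varied most between arrays. MET6 (YER091C), the cobalamin-independent methionine synthase gene, had −0.24, 0.98 and 0.17. Replicate 2 stood far above the others, and the SD of 0.62 was the largest of the 26 sulfur genes. The mean was 0.30 (95% interval −0.14 to 0.74, adjusted p = 0.508, limma). The spots of MET6 were alike within each array, so the difference between arrays was not a matter of 1 spot.

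Both genes for methylenetetrahydrofolate reductase, which makes the methyl donor of that step, had positive averages of their spots where measured, though MET13 was near 0 in replicate 3. MET12 (YPL023C) had 0.52 in replicate 1 and 0.52 in replicate 2, the closest pair of arrays among the sulfur genes, and no value in replicate 3. On the genes with at least 2 arrays its unadjusted p was 0.00614 and its adjusted p 0.126 (limma). In that fit 9.13% of the genes were higher at an unadjusted p under 0.05. MET13 (YGL125W), which encodes the main form of the enzyme, had 0.27, 0.12 and 0.0033 and a mean of 0.13 ± 0.13 (adjusted p = 0.658, limma). In replicate 3 the spots of MET13 lay on either side of 0, at −0.095 and 0.10. MET7 (YOR241W), the folylpolyglutamate synthetase gene, had −0.39, −0.061 and 0.21 and a mean of −0.080 ± 0.30.

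Sulfate reduction, the methionine cycle and transsulfuration were compared by the median of their genes on each array. The 8 sulfate reduction genes had medians of −0.14, −0.050 and 0.097 in replicates 1, 2 and 3 and a median of means of −0.017. The 7 measured genes of the methionine cycle, which here joins methionine synthesis with the AdoMet genes, had medians of 0.18, 0.43 and 0.12 and a median of means of 0.20. Transsulfuration rested on CYS3 and CYS4 alone, with medians of 0.13, 0.73 and 0.29.

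The methionine cycle median lay above the sulfate reduction median by 0.32 in replicate 1, 0.48 in replicate 2 and 0.024 in replicate 3. The mean difference of 0.27 had an SD of 0.23 between arrays, and in the dye swap the roles were nearly level. Transsulfuration lay above sulfate reduction by 0.27, 0.78 and 0.19 (mean 0.41 ± 0.32). With STR2 and STR3 counted, on the genes with at least 2 arrays, the transsulfuration median was 0.011 in place of 0.38, so its position depends on which genes had a value in replicate 3. The methionine cycle lay below transsulfuration by 0.30 and 0.17 in replicates 2 and 3 and above it by 0.050 in replicate 1. These medians are descriptions, with no test, because the genes were chosen with earlier results known.

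**Figure D2:**
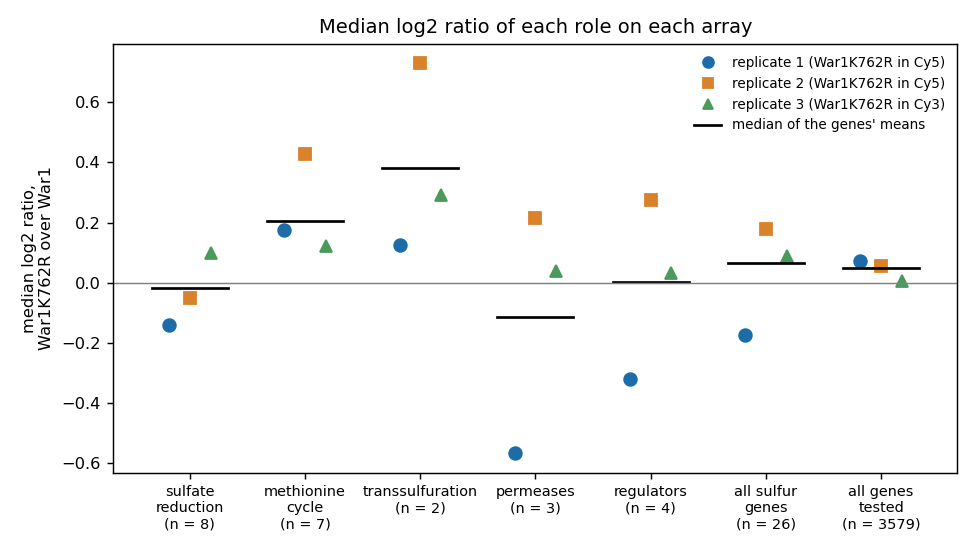
Median log2 ratio of War1K762R over War1 (y axis) for each role on each array (symbols) and the median of the genes' means (line), for genes on all 3 arrays, with all genes tested at the right. The methionine cycle and transsulfuration lie above 0 on every array, sulfate reduction and the permeases have both signs, and all genes tested lie between 0.0055 and 0.071.

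Of the permease genes, MUP1 and SAM3 differed widely between arrays and MMP1 and MUP3 little. MUP1 (YGR055W), for the high-affinity methionine permease, had −0.59, 0.21 and 0.039, and SAM3 (YPL274W), for the AdoMet permease, had −0.57, 0.46 and 0.38. Both were at their lowest in replicate 1 and positive elsewhere. Their means were −0.11 ± 0.42 and 0.094 ± 0.57 (adjusted p = 0.782 and 0.858, limma). MMP1 (YLL061W), for the S-methylmethionine permease, was negative on every array with −0.19, −0.12 and −0.25 and a mean of −0.19 ± 0.06 (adjusted p = 0.492, limma). MUP3 (YHL036W), for the low-affinity methionine permease, had −0.38 and −0.33 in replicates 1 and 2, with an unadjusted p of 0.0448 and an adjusted p of 0.282 on the genes with at least 2 arrays (limma), where 7.76% of the genes were lower at an unadjusted p under 0.05.

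Permease and methyltransferase genes sit side by side at 2 places in the R64 gene order, MHT1 beside MMP1 and SAM3 beside SAM4. SAM4 exceeded SAM3 by 0.86 in replicate 1 and lay below it by 0.33 in replicate 2 and 0.27 in replicate 3. MHT1 lay below MMP1 in replicate 1 (−0.48 beside −0.19) and above it in replicate 2 (0.32 beside −0.12), and had no value in replicate 3. Neighbours in these pairs therefore did not share one order on the arrays that measured both. SAM3 and MMP1 are paralogs, as are SAM4 and MHT1, and cross-hybridisation between them was not checked.

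Of the regulator genes measured on all 3 arrays, 0 passed an unadjusted p under 0.05 in limma, though MET31 did in some alternative settings. MET31 (YPL038W) and MET32 (YDR253C) encode related zinc finger proteins that recruit Met4. MET31 had −0.63, −0.0033 and −0.23, with a mean of −0.29 ± 0.32 (95% interval −0.61 to 0.030, unadjusted p = 0.071, adjusted p = 0.398, limma). Its unadjusted p was 0.0203 without replicate 2 and 0.0473 with centring on the genes tested (limma). On single spots the lower p of its spots was 0.0205 (limma). The adjusted p in these settings ran from 0.289 to 0.397 (limma). MET32 had −0.11, 0.41 and 0.084, with a mean of 0.13 ± 0.26 (adjusted p = 0.692, limma), and its spots in replicate 1 lay at 0.24 and −0.46. MET32 lay above MET31 by 0.52, 0.41 and 0.32, so the order of these paralogs was the same on all 3 arrays, a pair again picked after its values were seen and not tested.

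MET4 (YNL103W), for the activator itself, had −0.33, 0.45 and −0.0049, and MET30 (YIL046W), for the F-box protein that restrains it, had −0.31, 0.14 and 0.070. Their means were 0.039 ± 0.39 and −0.036 ± 0.24 (adjusted p = 0.929 and 0.923, limma). CBF1 (YJR060W), for the basic helix-loop-helix protein, had −0.31 and 0.34, and MET28 (YIR017C), for the bZIP cofactor, had −0.28 and −0.068, both in replicates 1 and 2 only. All 6 regulator genes had negative ratios in replicate 1, where 16 of the 26 sulfur genes on all 3 arrays were negative as well, and this was noticed after the values were seen.

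The arrays differed more in the sulfur genes than in most others. Of the 26 genes, 21 had an SD between arrays above the median SD of all genes tested. In replicate 1, 10 of the 26 were positive, where 59.5% of all genes were. In replicate 2 it was 18 of 26, beside 59.8% of all genes, and in replicate 3 again 18 of 26, beside 51% of all genes. In all, 9 genes, 34.6% of the 26, were negative in replicate 1 and positive in replicates 2 and 3, a pattern seen in 9.7% of all genes tested. They were CYS3, MET1, MET5, MET6, MET10, MET30, MET32, MUP1 and SAM3. For some of them the sign of an array was not shared by both spots. Spots lay on either side of 0 for MET10 and MET32 in replicate 1 and for MET1 in replicate 2. The same held for MET32 and MUP1 in replicate 3, where MET1 had a value on 1 spot only. This pattern was picked out after the values were seen and has no test, and replicate 1 is 1 pair of cultures.

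Across the 26 genes, replicates 2 and 3 correlated with Pearson's r of 0.56 (Spearman's rho 0.512), beside 0.252 for all genes. Replicates 1 and 2 correlated with r of 0.187, beside 0.311 for all genes, and replicates 1 and 3 with r of 0.12, beside 0.179. Replicates 1 and 2 had the same dyes, and replicate 3 had the opposite dyes to both. These correlations run across genes of 1 pathway, which are not independent, and are given as descriptions. Of the pairs with opposite dyes, one thus had the highest correlation and the other the lowest. Whether dye, spot filter or culture had a part in this was not tested.

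**Figure D3:**
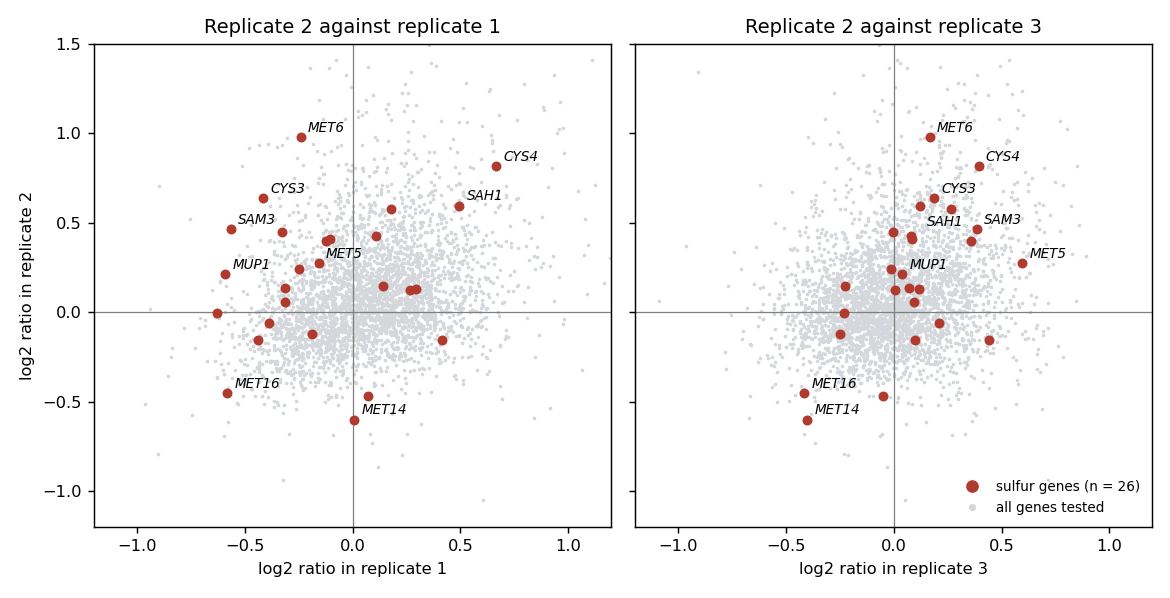
Log2 ratio of War1K762R over War1 in replicate 2 (y axis) against replicate 1 (left) and replicate 3 (right) for the 26 sulfur genes (large points) and all genes tested (small points, with 19 and 12 genes outside the axes at left and right). CYS3, MET6, SAM3, MUP1 and MET5 lie at the upper left against replicate 1 and at the upper right against replicate 3.

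Ratios of at least 1.5-fold on a single array were also counted. In replicate 1, CYS4 was at least 1.5-fold higher (3.85% of the 26 genes, against 4.53% of all genes), and MET31 and MUP1 were at least 1.5-fold lower (7.69%, against 1.01%). In replicate 2, CYS3, CYS4, MET6 and SAH1 were at least 1.5-fold higher (15.4%, against 7.52%), and MET14 was at least 1.5-fold lower (3.85%, against 0.503%). In replicate 3, MET5 was at least 1.5-fold higher (3.85%, against 2.04%), and 0 sulfur genes were at least 1.5-fold lower, beside 0.894%. Only CYS4 passed this fold on more than 1 array.

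**Figure D4:**
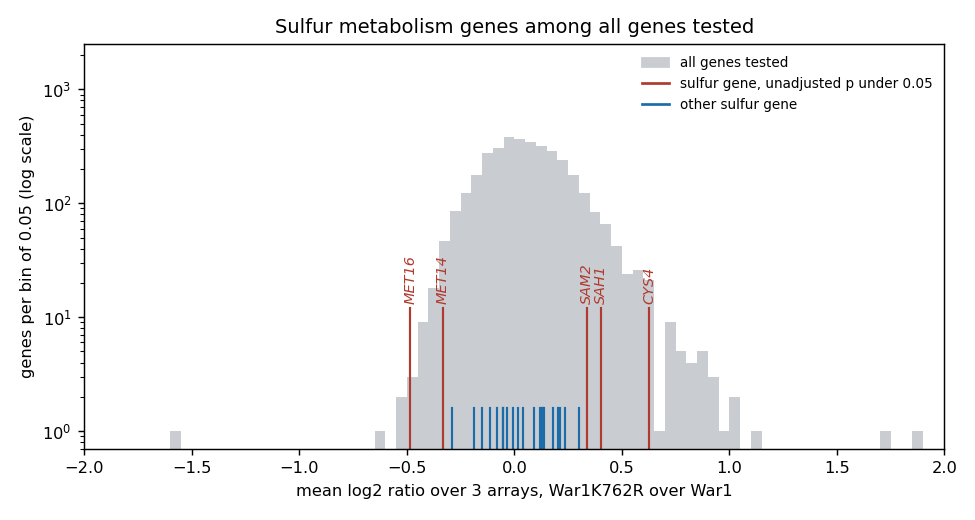
Number of genes (y axis, log scale) by mean log2 ratio over the 3 arrays (x axis) for the 3579 genes tested, with a line at the mean of each of the 26 sulfur genes. MET16 at −0.48 and MET14 at −0.33 lie in the low tail and SAM2, SAH1 and CYS4 at 0.34, 0.40 and 0.63 in the upper part, while the other 21 lie between −0.29 and 0.30.

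Around the chosen genes, 46 further genes of sulfur, folate, glutathione and methionine salvage metabolism and of the Met30 ubiquitin ligase were looked up, and 38 of them had a value on all 3 arrays. Of these 0 passed adjusted p 0.05 in limma, and at an unadjusted p under 0.05, 6 were higher and 0 lower, beside 11.1% and 2.68% of all genes. Their median mean was 0.078. The highest means with one sign on all 3 arrays were those of ADI1 (YMR009W), the acireductone dioxygenase gene of methionine salvage, IRC7 (YFR055W), a cysteine desulfhydrase gene, and ECM38 (YLR299W), the gamma-glutamyltranspeptidase gene of glutathione breakdown. ADI1 had 0.65, 0.90 and 0.036 (mean 0.53 ± 0.45, adjusted p = 0.206, limma). IRC7 had 0.84, 0.24 and 0.39 (mean 0.49 ± 0.31, adjusted p = 0.165, limma). ECM38 had 0.32, 0.65 and 0.096 (mean 0.35 ± 0.28, adjusted p = 0.29, limma). Only IRC7 among these was well above 0 in the dye swap. The lowest were SHM2 (YLR058C), the cytosolic serine hydroxymethyltransferase gene, SKP1 (YDR328C), a ubiquitin ligase subunit gene, and DFR1 (YOR236W), the dihydrofolate reductase gene, with means of −0.21, −0.20 and −0.20 and adjusted p from 0.459 to 0.48 (limma).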

How the data were processed

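Values are log2 ratios, 1 per spot of an array, as deposited by the authors. Scanner, formula, spot filter and normalization were not given in the sources used here. Of 13056 spots, 12277, 12112 and 7367 had a value in replicates 1, 2 and 3, and the medians as deposited were −0.27, 0.16 and 0.09. No intensities were used here, and the number of arrays limits the precision. Among values within 0.5 of 0, 2 to the power of the value had 3 decimals, within the rounding of the printed value, for 100.0% of replicates 1 and 2, and in replicate 3 for 10.2% as deposited and 100.0% after a change of sign. The replicate 3 column was thus taken as already turned by the authors to run like the others. Per the labels, all 3 arrays are biological repeats and 20 µg of total RNA was labelled per channel.

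The GEO platform annotation named 11146 spots with 1 symbol, several for 0 and none for 1910. Of the 5543 named genes, 5538 were in the R64 gene table, which gave systematic names and gene order. The median over all spots was subtracted from each array, and the spots of a gene were averaged. limma 3.58.1 in R 4.3.3 (lmFit, eBayes, two-sided) tested the mean against 0, after tests on simulated data. Intervals are limma's moderated 95% intervals, unadjusted. The alternatives were each replicate left out (replicate 3 also with the genes tested held the same), genes on at least 2 arrays, a dye term, single spots, other centring, array weights and replicate 3 turned once more. Genes, roles and lists were chosen with earlier results of these data known. All 34 genes are named; of the 46 companion genes, the 3 highest and 3 lowest means with one sign on all 3 arrays are, and MET17 was added for its role.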

Additional observations from a re-analysis of the deposited data

How the results depend on the processing

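The count of sulfur genes past adjusted p 0.05 (limma) was 0, and it was 1, CYS4, without replicate 3 (5475 genes tested) and on the genes with at least 2 arrays. Without replicate 3 on the 3579 genes measured on all 3 arrays it was 0 (CYS4 adjusted p = 0.0857, and ADI1 0.0794 among the companion genes), and 16 of all genes passed. Leaving out a replicate gave 0 to 1 there, 0 to 1 for the companion genes (ADI1, adjusted p = 0.0365 without replicate 3), 2 (without replicate 1) to 80 (without replicate 3) for all genes, against 13, and 3 to 9 for sulfur genes at an unadjusted p under 0.05, against 5. The count of 9 came without replicate 1, where 11% of all genes passed that level, and the count of 3 without replicate 2, where 8.99% did. Without centring 3 sulfur genes reached that level, beside 6.4% of all genes. With replicate 3 turned once more 1 did, beside 4.05% of all genes. The count of all genes was 117 on at least 2 arrays, 3 with a dye term, 5 on single spots, 4 with centring on the genes tested, 26 without centring, and 25 under array weights. Turning replicate 3 once more left 0 genes, with 145 at an unadjusted p under 0.05 (limma). The median of transsulfuration, 0.38, was 0.011 on at least 2 arrays and, over the settings that leave out a replicate, ran from −0.0016 to 0.51. In each case where STR2 and STR3 entered it, the median lay near 0.

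MET16, MET14, CYS4, SAH1, SAM1, SAM2, SAM4, MET13, MMP1 and MET31 kept their sign in all 11 settings. The other 16 turned in at least 1 setting. SUL2 was 0.0006 with replicate 3 turned once more and 0.031 under array weights. MET22 was −0.042 with a dye term and −0.025 with centring on the genes tested, MET8 was 0.071 with a dye term, MET1 was 0.045 on single spots and MET4 was −0.0056 with centring on the genes tested. With replicate 3 turned once more MET5, MET10 and SAM3 were −0.16, −0.027 and −0.16. Over the settings that leave out a replicate, SUL1 ran from −0.26 to 0.011, SUL2 from −0.13 to 0.11, MET3 from −0.028 to 0.26, MET22 from −0.044 to 0.14 and MET1 from −0.13 to 0.076. MET8 ran from −0.30 to 0.14, CYS3 from −0.11 to 0.41, MET6 from −0.037 to 0.57, MET7 from −0.23 to 0.075 and MUP1 from −0.28 to 0.13. SAM3 ran from −0.091 to 0.42 (−0.052 without replicate 3), MET4 from −0.17 to 0.22, MET30 from −0.12 to 0.10 and MET32 from −0.011 to 0.25.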
